A study of Mus musculus with 18 samples.

Results

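The genes described here are the AP-1 family and its relatives in B cells: Fos, Fosb, Fosl1 and Fosl2 of the FOS family, Jun, Junb and Jund of the JUN family, Batf and Batf3 of the BATF family, and Atf3. They were chosen by symbol, and all 10 were found among the 23420 gene symbols measured. The study sequenced messenger RNA of B cells from the spleen of young MRL/lpr mice (5 to 7 weeks), which lack functional Fas through the lpr mutation and develop a lupus-like disease. Cells were purified by negative selection on beads and cultured for 4 h with or without an agonist of a nucleic acid-sensing Toll-like receptor (TLR). There were 18 libraries, 3 for each of 6 groups. The first arm used female mice, every one Tlr7-/-. Their TLR9 was either the normal protein from Tlr9+/- mice (here Tlr9het) or TLR997 from mice homozygous for that allele (here Tlr997). The paper chose Tlr9+/- controls to match the amount of TLR9 protein. TLR997 has the endosomal and transmembrane domains of TLR9 and the signaling (TIR) domain of TLR7, and was made by inserting that domain into the Tlr9 locus. These cells were left unstimulated or given CpG, the TLR9 agonist ODN 1826, at 10 µg/ml. In the second arm the mice were male and Tlr9-/- and carried TLR779, a TLR7 with the TIR domain of TLR9 (here Tlr779), and the cells were left unstimulated or given the TLR7 agonist CL097 at 5 µg/ml. The titles name the first arm's controls Tlr9+/-, whereas the treatment protocol calls them Tlr9-/-, and the titles were followed. The arms differed in sex, background deletion and agonist, so no test was made between them.

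AP-1 is a dimer of basic leucine zipper (bZIP) proteins. A FOS protein must pair with a JUN protein, while JUN proteins can also pair among themselves, and the dimer binds a short palindromic site in promoters and enhancers. BATF proteins lack a transactivation domain, pair with JUN proteins in place of FOS, and in lymphocytes bind composite sites together with IRF4 or IRF8. Batf is needed for class switch recombination in B cells. TLRs signal through MyD88 to MAP kinases, which both phosphorylate existing JUN, ATF2 and ternary complex factors and raise transcription of Fos and Jun.

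The deposited values are log2 CPM (reads of a gene relative to all reads of its library), as the authors normalized them, and sequencing depth is unknown because no counts were used here. The 5 B cell markers Ms4a1, Cd79a, Cd79b, Pax5 and Cd22 were all present, and their summed level was 4869 to 6552 CPM in the unstimulated libraries. It was lower with an agonist, at 1155 to 1211 CPM in Tlr9het, 2025 to 2482 CPM in Tlr997 and 1792 to 2481 CPM in Tlr779. The markers did not move as one: Cd79a, Cd79b and Cd22 fell in all 3 responses and Ms4a1 fell in Tlr9het and Tlr779, whereas Ms4a1 was 0.41 higher in Tlr997 on the log2 scale (not called) and Pax5 was 0.54 higher in Tlr9het (called), 0.47 higher in Tlr997 and 0.021 higher in Tlr779 (neither called). Over the 4 dendritic cell markers the summed level was 28.9 to 42.7 CPM without and 70.2 to 98.6 CPM with an agonist, and over the 5 macrophage markers found it was 120 to 438 CPM without and 80.8 to 175 CPM with an agonist. The dendritic cell sum rose through Zbtb46 (log2 fold changes 1.80, 1.86 and 2.22 in Tlr9het, Tlr997 and Tlr779). Flt3 was called higher with CL097 alone (0.57), and Itgax and Siglech had fold changes from -0.80 to -0.13 and were not called. The 5 T cell markers summed to at most 21.2 CPM and the 3 NK cell markers to at most 6.91 CPM. None of these markers was at the lowest values in every library. The part of these shifts in the results was not tested, and in bulk samples fewer cells of a type and less RNA per cell cannot be told apart. In the libraries labelled Tlr7-/-, Tlr7 was at 2.68 to 4.28 log2 CPM in Tlr9het and at 4.81 to 5.36 in Tlr997, whose allele carries the TIR domain of TLR7. It was at 6.61 to 7.82 in the other libraries. Tlr9 was at 6.93 to 7.47 in the libraries labelled Tlr9-/-, close to the 7.02 to 8.08 of the other libraries. Unstimulated, Tlr9 was at 7.02 to 7.06 in Tlr997 and 7.28 to 7.48 in Tlr9het. With CpG it was at 7.18 to 7.56 in Tlr997 and 7.93 to 8.08 in Tlr9het. The part of these receptor levels in the results was not tested. Replicate 3 of unstimulated Tlr997 stood apart from its group, with correlations of 0.944 and 0.955 to the other two over 11676 genes against 0.976 to 0.989 for all other pairs of replicates.

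At rest the AP-1 messages were mostly Jund and Junb. Levels of different genes were compared per length, as CPM per kb of annotated exon, and each gene's share of the sum over the 10 genes was computed in each library. In unstimulated Tlr9het cells Jund held 46.1% ± 2.27 (SD, n = 3) of the sum and Junb 35.2% ± 0.756, against 6.80% ± 1.19 for Jun and 2.76% ± 0.391 for Batf. The other resting groups were alike, with Junb and Jund together at 78.0 to 81.3% in Tlr997 and 74.7 to 80.6% in Tlr779. JunD is the JUN protein best known from resting cells, and both JunD and JunB are known for restraining growth.

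With CpG Jun and Batf took over as the main messages, whereas with CL097 Jun came first and Junb and Batf held similar shares. In Tlr779 with CL097, Jun held 36.5% ± 0.90 (SD, n = 3), Junb 24.9% ± 0.65 and Batf 23.2% ± 2.21. The joint share of Jun and Batf in the per-length sum was 8.22 to 11.3% in the unstimulated Tlr9het libraries and 73.4 to 75.3% with CpG. It went from 9.96 to 11.7% at rest to 69.2 to 71.4% with CpG in Tlr997, and from 9.99 to 12.2% at rest to 56.9 to 61.7% with CL097 in Tlr779. No stimulated library overlapped an unstimulated one in this share. The per-length sum over the 10 genes was 275 ± 38.2 CPM per kb (SD, n = 3) at rest and 1082 ± 52.6 with CpG in Tlr9het, 284 ± 60.2 and 724 ± 34.3 in Tlr997, and 245 ± 30.2 and 695 ± 118 with CL097 in Tlr779. The 4 FOS genes together held little of the sum, from 1.03% ± 0.0899 in Tlr9het with CpG to 5.65% ± 0.464 in unstimulated Tlr779.

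**Figure D1:**
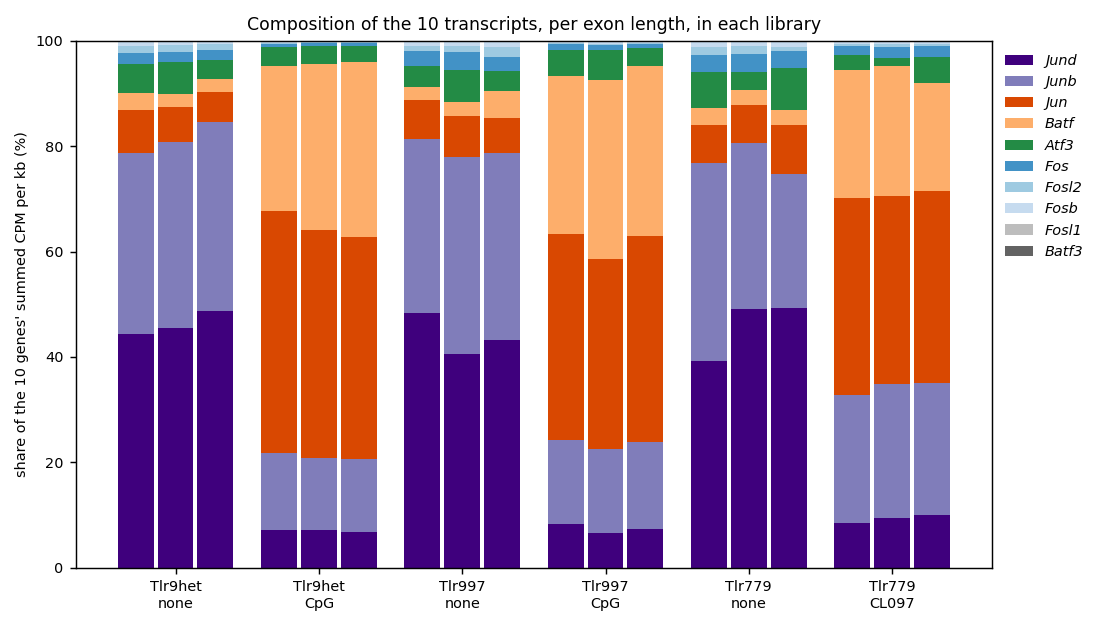
Share of each of the 10 genes in their summed CPM per kb of exon (y axis, percent), with 1 bar per library and 3 libraries per group. Jund and Junb (purple) fill most of each resting bar, and Jun and Batf (orange) fill 56.9 to 75.3% of each stimulated bar.

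To see which members responded, each stimulated group was compared with its own unstimulated group in a limma fit over all genes tested. A gene was called when its Benjamini-Hochberg adjusted p was below 0.05 and its log2 fold change was over 0.5 in size. With CpG in Tlr9het, 7 of the 9 members tested were called. The 5 higher ones were Fosl1, Jun, Junb, Batf and Atf3, where 29.7% of all genes tested were called higher, and the 2 lower ones were Fosl2 and Jund, where 28.2% were called lower. In Tlr997, 6 of 9 were called with CpG: Fosl1, Jun, Batf and Atf3 were higher (29.6% of all genes) and Fosl2 and Jund lower (26% of all genes). In Tlr779, 6 of the 8 tested were called with CL097: Fos, Fosb, Jun, Junb and Batf were higher (22.7% of all genes) and Jund lower (23.6% of all genes). The median log2 fold change of the members tested was 0.66 in Tlr9het, 0.25 in Tlr997 and 0.66 in Tlr779, against medians of 0.04, 0.07 and -0.02 over all genes tested. Batf3 was below the filter in both arms and Fosl1 in the second arm. With so many genes called in each direction, a call alone says little about a member, and the size of each change is given below for every one.

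**Figure D2:**
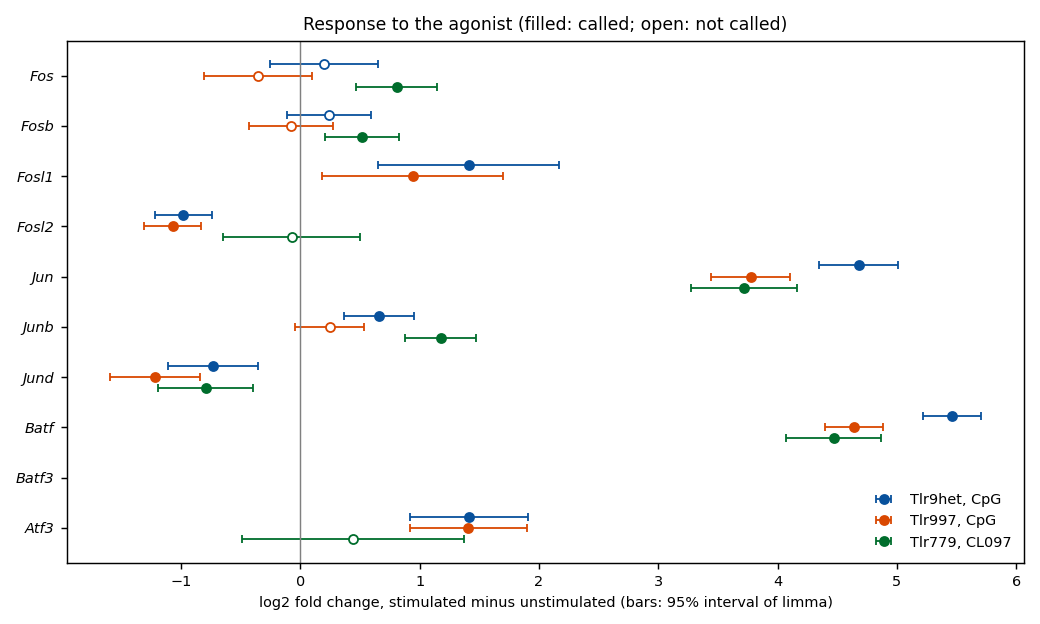
Log2 fold change of each member with the agonist (x axis) and its 95% interval from limma, in Tlr9het (blue), Tlr997 (orange) and Tlr779 (green). Filled points were called and open points were not, Batf3 was not tested, and Fosl1 was not tested in Tlr779. Jun and Batf lie at 3.72 to 5.46 in all 3 genotypes, apart from the other members, which lie between -1.22 and 1.41.

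Batf, the partner of JUN at IRF composite sites, showed the largest rise of the members in every genotype. Its levels in the unstimulated Tlr9het libraries were 3.48, 3.24 and 3.48 log2 CPM, and with CpG they were 8.75, 8.82 and 9.02 log2 CPM. The 3 stimulated libraries lay far above the 3 unstimulated ones, and the rise was 44.1-fold (log2 fold change 5.46, SE 0.11, limma adjusted p = 6.76e-13). In Tlr997, Batf went from 3.63, 3.53 and 3.96 log2 CPM to 8.27, 8.36 and 8.42 log2 CPM, a 24.9-fold rise (log2 fold change 4.64, SE 0.11, limma adjusted p = 2.7e-12). In Tlr779, it went from 3.26, 3.40 and 3.35 log2 CPM to 8.12, 7.91 and 7.39 log2 CPM with CL097, a 22.1-fold rise (log2 fold change 4.47, SE 0.17, limma adjusted p = 2.32e-06). Ordered by mean level, the resting groups lay together at 3.34 to 3.71 log2 CPM, where Tlr779 and Tlr9het overlapped, and the stimulated groups followed without overlap as Tlr779, Tlr997 and Tlr9het. Batf3, a relative known from dendritic cells, was at -1.26 log2 CPM or lower in all 18 libraries, and at -4.76 or lower in 8 of them. In Tlr779 it was at -5.19, -4.76 and -5.20 log2 CPM at rest and at -2.38, -1.56 and -3.43 with CL097, without overlap but at the bottom of the scale, and it was not tested.

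Jun rose nearly as far. In Tlr9het its levels were 5.99, 5.78 and 5.86 log2 CPM at rest and 10.67, 10.46 and 10.55 log2 CPM with CpG. The rise was 25.7-fold (log2 fold change 4.68, SE 0.15, limma adjusted p = 1.6e-11), and the differences between libraries of the same number were 4.68 in each of the 3 pairs. In Tlr997, Jun went from 6.31, 6.16 and 5.54 log2 CPM to 9.84, 9.62 and 9.88 log2 CPM, a 13.7-fold rise (log2 fold change 3.77, SE 0.15, limma adjusted p = 1.27e-10). In Tlr779, it went from 5.57, 5.92 and 6.28 log2 CPM to 9.93, 9.62 and 9.39 log2 CPM with CL097, a 13.2-fold rise (log2 fold change 3.72, SE 0.19, limma adjusted p = 5.39e-06). The 3 resting groups overlapped in Jun, Tlr779 with CL097 overlapped Tlr997 with CpG, and Tlr9het with CpG lay above all other groups. The Jun gene (chr4:95049034-95052222, minus strand) shares 232 exon bases with the antisense gene Junos, which has no row of its own in the files. The library kit keeps strand, but the strand setting of the counting is not given in the sources used here.

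The other JUN genes moved less, and Jund moved down. Junb in Tlr9het was at 7.61, 7.73 and 8.04 log2 CPM at rest and at 8.56, 8.33 and 8.47 with CpG, without overlap and 1.58-fold higher (log2 fold change 0.66, SE 0.13, limma adjusted p = 0.000574). In Tlr997 the Junb groups overlapped, at 7.49 to 8.01 log2 CPM against 7.99 to 8.16 with CpG, and the difference was not called (log2 fold change 0.25, 95% interval -0.045 to 0.53, limma adjusted p = 0.118). In Tlr779 Junb rose with CL097 from 7.51, 7.59 and 7.25 to 8.82, 8.66 and 8.39 log2 CPM, 2.26-fold (log2 fold change 1.18, SE 0.13, limma adjusted p = 0.000116). Junb shares 173 exon bases with Prdx2 on the other strand, which also rose with CL097 (log2 fold change 0.62, limma adjusted p = 0.0333). Prdx2 was not called with CpG in either genotype.

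Jund fell in all 3 genotypes. It went from 7.51, 7.63 and 8.02 to 7.05, 6.93 and 6.97 log2 CPM in Tlr9het, 0.601 of its resting level (log2 fold change -0.74, SE 0.17, limma adjusted p = 0.00186). In Tlr997 it went from 8.09, 7.64 and 7.31 to 6.64, 6.23 and 6.53 log2 CPM, 0.431 of its resting level (log2 fold change -1.22, SE 0.17, limma adjusted p = 2.97e-05). In Tlr779 it went from 7.11, 7.76 and 7.73 to 6.86, 6.78 and 6.59 log2 CPM with CL097, 0.578 of its resting level (log2 fold change -0.79, SE 0.17, limma adjusted p = 0.00445). Every stimulated library lay below every unstimulated library of its genotype. The CL097 call held in 13 of 14 alternatives and ended when genes with low values were kept in the fit (limma adjusted p = 0.0625). The single exon of Jund (chr8:70698949-70700616, plus strand) has 1668 bases and shares 877 of them with the antisense gene Gm11175, which has no row in the files.

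**Figure D3:**
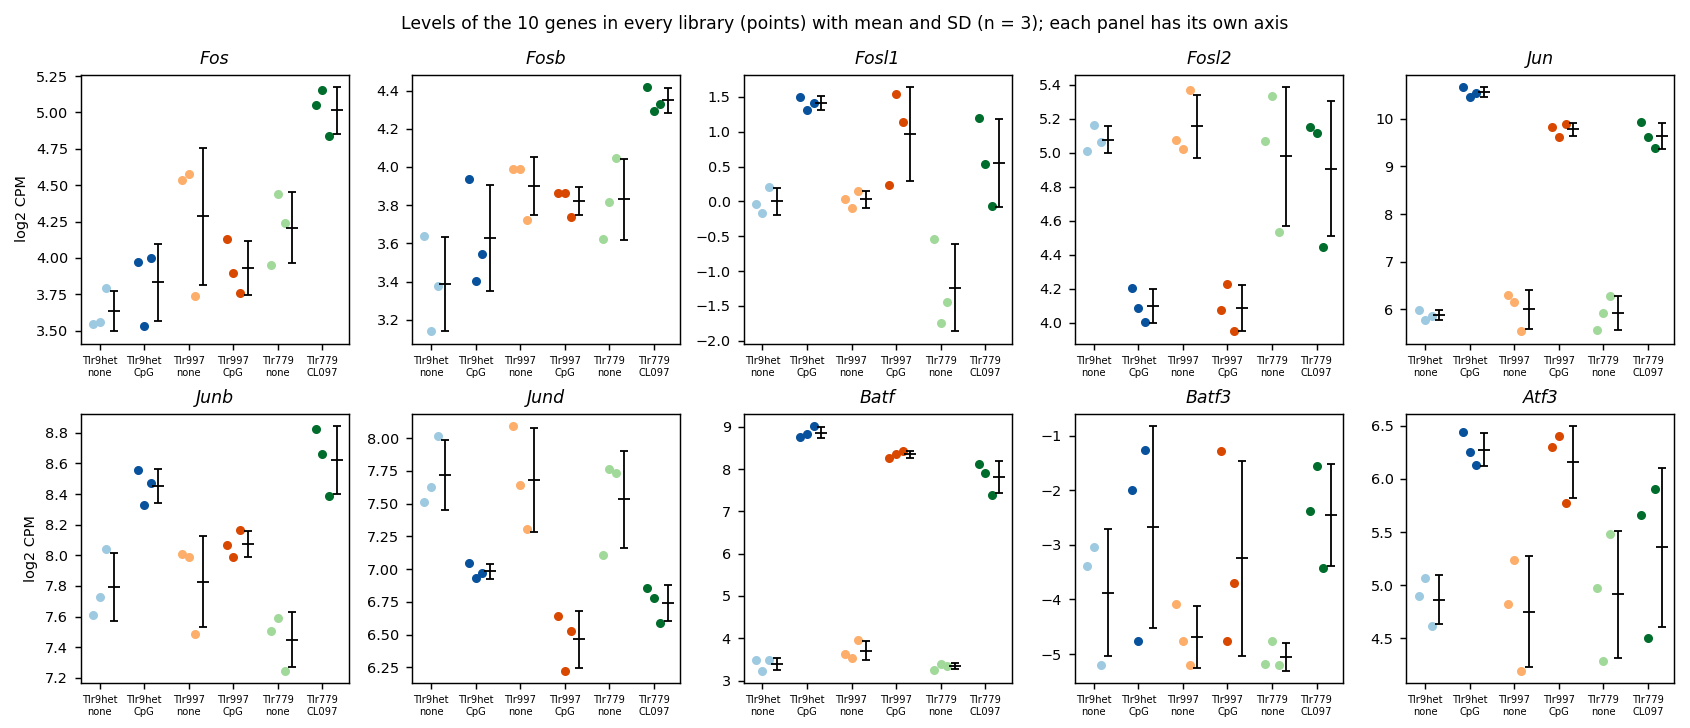
Level of each of the 10 genes in log2 CPM (y axis, own scale in each panel) in the 3 libraries of each group (points), with mean and SD beside them. Jun and Batf separate stimulated from unstimulated libraries by more than 3 log2 units, whereas for Fos and Fosb stimulated and unstimulated libraries overlap in the first arm.

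Of the FOS genes, Fos and Fosb were called higher with CL097 in Tlr779 and were not called with CpG, and Fosl2 fell with CpG. Fos, the classical immediate early gene whose message rises and decays early after stimulation, was at 3.55, 3.56 and 3.80 log2 CPM in resting Tlr9het and at 3.97, 3.53 and 4.00 with CpG. These libraries overlapped and the difference was not called (log2 fold change 0.20, 95% interval -0.25 to 0.65, limma adjusted p = 0.41). In Tlr997 Fos was at 4.54, 4.58 and 3.74 log2 CPM at rest and at 4.13, 3.90 and 3.76 with CpG (log2 fold change -0.36, 95% interval -0.81 to 0.095, limma adjusted p = 0.143). The low resting value is that of the library that stood apart. Without it Fos was called lower with CpG (log2 fold change -0.63, limma adjusted p = 0.00312), and over 22 alternatives it was called in 2, with adjusted p from 0.00312 to 0.42. The same library had the lowest summed level of the 4 neutrophil markers found among the unstimulated Tlr997 libraries, 31.5 CPM against 124 and 93.3, and of the macrophage markers, 120 CPM against 300.0 and 201. Their part in the Fos value was not tested.

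In Tlr779, by contrast, Fos went from 3.95, 4.44 and 4.24 to 5.05, 5.16 and 4.84 log2 CPM with CL097, 1.75-fold higher (log2 fold change 0.81, SE 0.15, limma adjusted p = 0.00186). Fosb, a close relative of Fos, was 1.43-fold higher there, going from 3.62, 3.82 and 4.05 to 4.42, 4.29 and 4.33 log2 CPM (log2 fold change 0.52, SE 0.13, limma adjusted p = 0.0104). The Fosb call lies just over the fold threshold and ended without replicate 1 of CL097 (log2 fold change 0.48, limma adjusted p = 0.0335), without replicate 1 of the unstimulated group (0.42, limma adjusted p = 0.0381) and with 1 CPM added before the log (0.49). It held in 11 of 14 alternatives. With CpG Fosb was not called in Tlr9het (log2 fold change 0.24, 95% interval -0.11 to 0.59, limma adjusted p = 0.198) or in Tlr997 (-0.078, 95% interval -0.43 to 0.27, limma adjusted p = 0.682). Whether the CpG and CL097 responses of Fos and Fosb differ was not tested, since sex, background and agonist all changed with the receptor.

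Fosl2 (FRA2) fell with CpG. It went from 5.01, 5.16 and 5.06 to 4.20, 4.09 and 4.01 log2 CPM in Tlr9het (log2 fold change -0.98, SE 0.11, limma adjusted p = 2.63e-06), to 0.507 of its resting level. In Tlr997 it went from 5.07, 5.02 and 5.37 to 4.08, 4.23 and 3.95 log2 CPM (log2 fold change -1.07, SE 0.11, limma adjusted p = 1.22e-06). With CL097 in Tlr779 it stayed within the spread of its libraries, at 5.07, 5.34 and 4.53 log2 CPM at rest and 5.15, 5.12 and 4.45 with the agonist (log2 fold change -0.074, 95% interval -0.65 to 0.50, limma adjusted p = 0.811). Replicate 3 of Tlr779 was low in both states.

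Fosl1 (FRA1) was near 1 CPM throughout. In Tlr9het its levels were -0.036, -0.17 and 0.20 log2 CPM at rest and 1.504, 1.31 and 1.42 with CpG, 2.66-fold higher (log2 fold change 1.41, SE 0.35, limma adjusted p = 0.00256). In Tlr997 they were 0.032, -0.091 and 0.15 log2 CPM at rest and 0.23, 1.55 and 1.13 with CpG (log2 fold change 0.94, SE 0.35, limma adjusted p = 0.028). That second call depended on single libraries. It was lost without replicate 1 or 2 of the unstimulated group (limma adjusted p = 0.0527 and 0.0677), without replicate 2 or 3 of the CpG group (limma adjusted p = 0.139 and 0.0798), and when the 2 groups were fitted alone (limma adjusted p = 0.104), and it held in 17 of 22 alternatives. In Tlr779, where it was not tested, Fosl1 was at -0.54, -1.74 and -1.44 log2 CPM at rest and at 1.19, 0.53 and -0.066 with CL097. Of its 2033 exon bases, Fosl1 shares 1163 with Ccdc85b on the other strand, which itself rose with CpG (log2 fold change 1.84 in Tlr9het and 1.41 in Tlr997, limma adjusted p = 4.7e-06 and 6.53e-05) and with CL097 (0.76, limma adjusted p = 0.013). Reads of this pair can be told apart only if strand was used in counting, so the Fosl1 values are uncertain.

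Atf3, a stress-induced bZIP repressor that limits TLR-driven cytokine genes, rose with CpG in both genotypes. It went from 4.90, 5.07 and 4.62 to 6.44, 6.25 and 6.14 log2 CPM in Tlr9het, 2.66-fold (log2 fold change 1.41, SE 0.23, limma adjusted p = 7.79e-05). In Tlr997 it went from 4.82, 5.24 and 4.20 to 6.30, 6.40 and 5.78 log2 CPM, 2.65-fold (log2 fold change 1.41, SE 0.23, limma adjusted p = 8.65e-05). In Tlr779 it was at 4.98, 4.29 and 5.48 log2 CPM at rest and at 5.66, 4.50 and 5.91 with CL097, with overlap and no call (log2 fold change 0.44, 95% interval -0.49 to 1.37, limma adjusted p = 0.369). Each CL097 library lay above the unstimulated library of the same number, by 0.69, 0.21 and 0.43. With the replicate number as a block the adjusted p was 0.0116, still below the fold threshold. Without replicate 2 of CL097 Atf3 was called (log2 fold change 0.87, limma adjusted p = 0.0443), the 1 call among 14 alternatives, over which the adjusted p ran from 0.0116 to 0.805.

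The promoters of 9 members were found in RefSeq (mouse GRCm38.p6), all but Fosl1, and were searched over the 250 bases before the annotated start on both strands. Those of the 3 members that rose most with CpG in both genotypes among the members with a promoter (Jun, Batf and Atf3) and of Fos, which did not rise with CpG, are shown because they let the responses be read beside the sequence. Capitals mark matches to the motifs named after them.
Jun promoter, chr4:95052223-95052472, minus strand: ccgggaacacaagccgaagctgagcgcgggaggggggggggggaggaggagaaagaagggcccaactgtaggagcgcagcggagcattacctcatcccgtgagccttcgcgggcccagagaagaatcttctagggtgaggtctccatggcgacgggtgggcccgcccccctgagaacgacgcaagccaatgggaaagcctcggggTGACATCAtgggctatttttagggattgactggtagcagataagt
Batf promoter, chr12:85686470-85686719, plus strand: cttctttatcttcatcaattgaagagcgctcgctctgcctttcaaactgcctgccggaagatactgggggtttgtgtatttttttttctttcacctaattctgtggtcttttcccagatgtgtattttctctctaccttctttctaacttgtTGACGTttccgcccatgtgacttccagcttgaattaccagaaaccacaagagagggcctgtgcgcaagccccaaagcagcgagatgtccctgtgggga
Atf3 promoter, chr1:191183334-191183583, minus strand: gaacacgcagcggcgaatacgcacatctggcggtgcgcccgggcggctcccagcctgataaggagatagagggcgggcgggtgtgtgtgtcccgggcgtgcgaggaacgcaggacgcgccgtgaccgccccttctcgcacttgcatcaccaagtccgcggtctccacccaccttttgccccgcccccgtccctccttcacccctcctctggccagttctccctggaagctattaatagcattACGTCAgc
Fos promoter, chr12:85473640-85473889, plus strand: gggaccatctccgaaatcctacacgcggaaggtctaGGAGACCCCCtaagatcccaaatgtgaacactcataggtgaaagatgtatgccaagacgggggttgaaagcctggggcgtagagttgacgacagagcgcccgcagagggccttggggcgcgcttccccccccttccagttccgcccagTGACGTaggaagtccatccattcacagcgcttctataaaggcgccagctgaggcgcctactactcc
In these 250 bases none of the 9 promoters held the AP-1 site TGANTCA (6.75% of 32851 mouse promoters do). None held the full cyclic AMP response element TGACGTCA (1.55%) or a serum response (CArG) box (1.47%). Sites further upstream were not searched, so these absences cover the window only. The wider motif TGACNTCA, which takes in both the full element and the variant AP-1 site known from the Jun promoter, was chosen after the sequences were seen, and occurs in 7.49% of promoters. It matched Jun alone, 45 bases before the start. The core of the response element, TGACGT, which lies within the full element, was also chosen after the sequences were seen and occurs in 6.47% of promoters. It matched Fos at 66, Batf at 98 and Atf3 at 8 bases before the start, in Atf3 on the other strand. A canonical NF-kB site, in 3.90% of all promoters, matched Fos, Fosb and Fosl2. None of these motifs matched Junb, Jund or Batf3. The Jund stretch searched was chr8:70697489-70697738, upstream of the gene start given above (70698949), so its lack of matches holds for the RefSeq start only. The RefSeq start also differed from the start of the annotation used for exon lengths in other members, among them Atf3. A match is a string of letters and says nothing about binding.

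To see if AP-1 gene expression differed between the receptors, Tlr997 was compared with Tlr9het. Before stimulation no member was called, where 0.0174% of all genes were called higher and 0% lower. At an unadjusted limma p below 0.05, 1237 genes and 3 of the 9 members tested (Fos, Fosb and Batf) differed, and the members were higher in Tlr997. Fos was 0.65 higher on the log2 scale (limma adjusted p = 0.345) with overlapping libraries. Fosb was 0.51 higher (limma adjusted p = 0.339) and Batf 0.31 higher (limma adjusted p = 0.383), and neither overlapped. How many of all genes lay without overlap between these groups was not counted. For Jun the difference was 0.13 (95% interval -0.20 to 0.46), for Junb 0.035 (-0.25 to 0.32) and for Jund -0.038 (-0.41 to 0.34).

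With CpG, Jun and Batf were lower in Tlr997. Jun was at 9.84, 9.62 and 9.88 log2 CPM in Tlr997 against 10.67, 10.46 and 10.55 in Tlr9het, 0.582 of the Tlr9het level (log2 difference -0.78, SE 0.15, limma adjusted p = 0.00967). Batf was at 8.27, 8.36 and 8.42 log2 CPM against 8.75, 8.82 and 9.02, 0.700 of the Tlr9het level (log2 difference -0.52, SE 0.11, limma adjusted p = 0.0161). These were the 2 members called, both lower, where 1.25% of all genes were called higher and 1.47% lower. Junb and Jund were not called (log2 differences -0.38 and -0.52, limma adjusted p = 0.135 and 0.115). Their Tlr997 libraries lay below all Tlr9het libraries, but such separation was not counted over all genes and says little by itself. Fos, Fosb, Fosl1, Fosl2 and Atf3 overlapped, with log2 differences between -0.44 and 0.19. For Fosl2 the difference was -0.013 (95% interval -0.25 to 0.23) and for Atf3 -0.12 (-0.61 to 0.38).

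The 2 calls rest on small margins. The Jun call was lost without replicate 1 of Tlr9het with CpG (log2 difference -0.72, limma adjusted p = 0.0521). The Batf call was lost without replicate 1 or 2 of Tlr997 with CpG (-0.48 and -0.52, limma adjusted p = 0.0632 and 0.0527) or replicate 3 of Tlr9het with CpG (-0.44, limma adjusted p = 0.0849). Both ended when genes with low values were kept in the fit (limma adjusted p = 0.0927 for Jun and 0.0999 for Batf, the highest of all alternatives). Over 21 alternatives Jun was called in 19 and Batf in 15, and neither turned sign. Jund was called in 4 of the 21: in a fit of the 2 groups alone (limma adjusted p = 0.0114), with array quality weights (log2 difference -0.56, limma adjusted p = 0.0105) and without replicate 1 or 3 of unstimulated Tlr997 (limma adjusted p = 0.0407 and 0.0435). In the same libraries 3 of 5 B cell markers were called higher in Tlr997 with CpG (60%, against 1.25% of all genes). These were Ms4a1 by 1.26, Cd79b by 1.04 and Cd22 by 0.58 on the log2 scale. Cd79a was at a mean of 7.71 log2 CPM in Tlr997 and 7.67 in Tlr9het. Pax5 was at 7.26 in Tlr997 and 7.39 in Tlr9het, and neither was called. The part of the B cell markers in the Jun and Batf differences was not tested.

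The response itself was compared by the interaction term. The CpG response of Batf was smaller in Tlr997 by 0.82 on the log2 scale, 4.64 against 5.46 (difference -0.82, SE 0.16, limma adjusted p = 0.0193). Batf was the 1 member called, where 0.687% of all genes were called higher and 0.853% lower. The call was lost without replicate 3 of Tlr9het with CpG (difference -0.75, limma adjusted p = 0.0648) and held in 17 of 21 alternatives, with adjusted p up to 0.119. The difference for Jun was as large, 3.77 against 4.68 (difference -0.91, SE 0.22, limma adjusted p = 0.0508), and missed the threshold. It was called when replicate numbers were blocked, within or across genotypes (limma adjusted p = 0.0197 and 0.0295), although the numbers do not pair the libraries in all of Tlr997. Without replicate 3 of unstimulated Tlr997 Jun was called (difference -1.14, limma adjusted p = 0.000531), as was Junb (-0.58, limma adjusted p = 0.0449). Over 21 alternatives Jun was called in 6, with adjusted p from 0.000531 to 0.238. With all libraries Junb differed by -0.41 (limma adjusted p = 0.306) and Jund by -0.48 (limma adjusted p = 0.364). Fos differed by -0.56 (limma adjusted p = 0.383), Fosl1 by -0.47 (limma adjusted p = 0.696) and Fosb by -0.32 (limma adjusted p = 0.539). Every member tested had a negative difference, with a median of -0.47 against 0.012 over all genes tested. The Atf3 responses differed by -0.0050 (95% interval -0.70 to 0.69) and those of Fosl2 by -0.090 (-0.43 to 0.25).

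**Figure D4:**
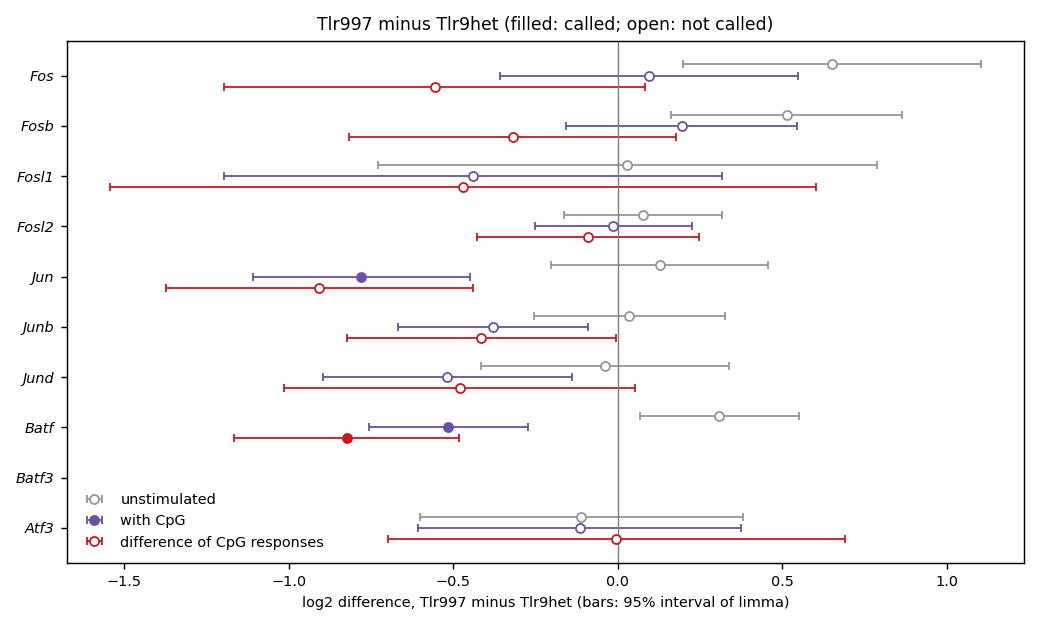
Log2 difference of each member between Tlr997 and Tlr9het (x axis) with its 95% interval from limma, unstimulated (grey), with CpG (purple) and for the CpG response itself (red). Filled points were called. With CpG the JUN genes, Batf, Fosl1, Fosl2 and Atf3 lie left of 0, and in the response every member tested does. Of the JUN genes Jun alone was called, and with CpG alone. Fos, Fosb and Batf lie furthest right of 0 before stimulation.

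Of 26 genes that carry the TLR signal to AP-1, 25 were tested as messages. They encode kinases, apart from Tab1, Tab2 and Tab3. With CpG 4 rose (16%, against 29.7% of all genes) and 9 fell (36%, against 28.2%) in Tlr9het, and 2 rose (8%, against 29.6%) and 9 fell (36%, against 26%) in Tlr997. With CL097 2 rose (8%, against 22.7%) and 8 fell (32%, against 23.6%). The medians were -0.084, -0.17 and -0.16, against 0.04, 0.07 and -0.02 over all genes. The largest falls with CpG in Tlr9het were those of the p38 kinase kinase Map2k6 (log2 fold change -3.52) and the p38 isoform Mapk11 (-3.25), and the largest rises those of Map3k5, or ASK1, (0.75) and the ribosomal S6 kinase Rps6ka1 (0.53). The Map2k6 change ended at low values, -0.59, -1.01 and -3.27 log2 CPM in Tlr9het with CpG. Map3k5 was called in the interaction as well, with a response of 0.75 in Tlr9het and 0.14 in Tlr997 (difference -0.61, limma adjusted p = 0.0174). Of the 13 ternary complex, MEF2 and CREB factors that act at immediate early promoters, 2 rose and 7 fell with CpG in each genotype (15.4% and 53.8%, against 29.7% and 28.2% of all genes in Tlr9het and 29.6% and 26% in Tlr997), and 1 rose and 6 fell with CL097 (7.69% and 46.2%, against 22.7% and 23.6%). Mef2c (-3.43) and Crem (-1.61) fell most with CpG in Tlr9het, and Crtc2 (0.72) and Atf1 (0.66) rose most. None of the list counts was tested against all genes, and they are of messages and do not measure kinase activity.

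Among the partners at composite sites, the IRF proteins that bind with BATF rose in all 3 responses. Irf4, which AP-1-IRF composite elements need in activated lymphocytes, rose by 1.61, 1.36 and 1.58 on the log2 scale in Tlr9het, Tlr997 and Tlr779, and Irf8 by 0.93, 0.58 and 0.64. In all, 4 of the 9 partners tested rose and 5 fell with CpG in each genotype (44.4% and 55.6%, against 29.7% and 28.2% of all genes in Tlr9het and 29.6% and 26% in Tlr997), and 4 rose and 4 fell with CL097 (44.4% each, against 22.7% and 23.6%). Runx3 (1.66) and Irf4 rose most with CpG in Tlr9het, and Ets1 (-3.56) and the calcium-dependent AP-1 partner Nfatc2 (-2.44) fell most. Runx1 fell by 1.20 in Tlr9het and by 1.88 in Tlr997 (difference -0.68, limma adjusted p = 0.0432). Of the 29 other bZIP genes 27 were tested. With CpG 12 rose (44.4%, against 29.7% of all genes) and 6 fell (22.2%, against 28.2%) in Tlr9het, and 10 rose (37%, against 29.6%) and 7 fell (25.9%, against 26%) in Tlr997. With CL097 8 rose (29.6%, against 22.7%) and 5 fell (18.5%, against 23.6%). Cebpd (4.41) and Nfil3 (2.80) rose most with CpG in Tlr9het, and Bach2, a repressor of plasma cell differentiation, (-1.63) and Creb3l2 (-1.44) fell most. The Cebpd change started from low values, -3.27, -1.25 and -1.30 log2 CPM in unstimulated Tlr9het.

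Since Fos, Fosb, Jun and Atf3 also respond to cell handling, 11 other early genes known from handling were read beside them. With CpG 3 rose (27.3%, against 29.7% of all genes) and 4 fell (36.4%, against 28.2%) in Tlr9het, and 4 rose (36.4%, against 29.6%) and 5 fell (45.5%, against 26%) in Tlr997. With CL097 3 rose (27.3%, against 22.7%) and 2 fell (18.2%, against 23.6%). Btg2 (-2.77) and Klf6 (-1.53) fell most with CpG in Tlr9het, and Ier3 (1.20) and Ier5 (1.05) rose most. Egr1 fell by 1.15 and 1.25 with CpG in Tlr9het and Tlr997 and was not called with CL097 (0.33). Other early genes moved with CL097. Mean levels went from 8.37 to 9.47 log2 CPM for Nr4a1, from 1.31 to 2.50 for Hspa1a and from 1.62 to 2.63 for Hspa1b. In the other direction, Btg2 went from 8.90 to 7.35 and Klf6 from 7.94 to 7.11. Zfp36, whose product destabilizes early messages, was called in the interaction, at -0.75 in Tlr9het and -1.30 in Tlr997 (difference -0.55, limma adjusted p = 0.038). The part of handling in the resting levels of Fos, Fosb, Jun and Atf3 was not tested.

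For each member with a mean over 2 log2 CPM in the first arm, the most similar genes over its 12 libraries were listed by Pearson correlation, as a description of profiles that share libraries and treatment. Batf was followed most closely by Rbmx2 and Ebna1bp2 (r = 0.999 for both). Jun was followed by Icam1 (0.998), the adhesion molecule and NF-kB target, and Rrs1 (0.997). Atf3 was followed by Ifitm3 (0.977) and Chmp4b (0.976), and Fosl2 by Fmo5 (0.994) and 1810013L24Rik (0.993). Jund was followed by Ier2 (0.982), one of the handling genes read above, and by Vav1 (0.976), and Junb by Edf1 (0.941) and Pgp (0.937). For Fos (Cox4i1, 0.863, and Churc1, 0.838) and Fosb (Ckb, 0.779, and Clspn, 0.760) no gene came as close.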

How the data were processed

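Libraries were made with a stranded poly(A) kit from B cells of 3 mice per genotype, per the treatment protocol, which ties no replicate number to a mouse. Per the labels and the study's methods, the authors trimmed reads with Trim Galore 0.6.5, aligned them to mm10 with STAR 2.6.1a, counted genes with featureCounts (Subread 2.0.1), and normalized with voom and quantile normalization. The deposited values are log2 CPM, 1 file per library. The values carry a trace of an unstated step: 6614 genes were below -4 throughout the first arm (12 libraries), and 6306 of these had 1 value per replicate number. Without counts, a count model could not be used and depth is unknown.

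Members, gene lists and thresholds were chosen with earlier results of these data known. Genes with over 0 log2 CPM in at least 3 fitted libraries were tested (11494 in the first arm, 12 libraries in 1 model, and 11082 in Tlr779, 6 libraries) with limma 3.58.1 in R 4.3.3, with a variance trend. Fold changes are differences of log2 values with no pseudocount. P-values were adjusted over all genes tested and measure the spread between these samples. The named-gene rule took all members, the 2 largest rises and falls of each list with CpG in Tlr9het, genes called in the interaction, and the 2 most alike genes. Irf8, Egr1, Nr4a1, Hspa1a, Hspa1b and overlapping genes were added after their values were seen. Shares used exon lengths of GENCODE M21, which may differ from the authors' annotation. A further B cell marker is not reported here. The script was tested on simulated data. Same-numbered libraries deviated together in Tlr9het (r = 0.29 to 0.51) and Tlr779 (0.25 to 0.49), but not in all pairs of Tlr997 (0.025 to 0.37). The main fits, which gave the reported p-values unless a block is named, compared group means without pairing. The replicate number was used as a block in alternatives only.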

Additional observations from a re-analysis of the deposited data

Results flagged for a closer look

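The CpG response of Batf differed between the 2 genotypes of the Tlr7-/- arm by the interaction term. The log2 fold change was 5.46 in Tlr9het and 4.64 in Tlr997, a difference of -0.82 (SE 0.16, limma adjusted p = 0.0193). Over the 21 alternatives the difference ran from -0.91 to -0.70, with adjusted p from 0.00429 to 0.119, and it was called in 17. The call was lost without replicate 3 of Tlr9het with CpG (difference -0.75, limma adjusted p = 0.0648). With 3 libraries in each group, outlying libraries were not tested for beyond leaving out each in turn.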

How the results depend on the processing

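No member was called at rest under any alternative. Apart from the fold threshold, settings moved 5 results of the responses over the calling line: Fosl1 in Tlr997 was called in 17 of 22 alternatives and Fos there in 2, and with CL097 Fosb was called in 11 of 14, Jund in 13 and Atf3 in 1. Raising the fold threshold to 1 (log2) left 4 members called in Tlr9het and 3 in Tlr779. In the comparisons of stimulated genotypes, with CpG, 2 members were called, against 1 with all 18 libraries in 1 model or without the variance trend, 0 without the filter on low values or at a fold threshold of 1, 3 (Jund gained) in a fit of the 2 groups alone or with array quality weights (adjusted p = 0.0114 and 0.0105), and 1 to 3 when each library was left out. For the difference of responses, 1 member (Batf) was called, against 0 with all 18 libraries, without the filter, without the trend or at a fold threshold of 1, 2 with the stricter filter or 1 CPM added, 3 with array quality weights, and 0 to 3 when each library was left out. With a replicate block, within or across genotypes, 2 were called, Jun being the one gained (adjusted p = 0.0197 and 0.0295). The block changed no other member's call. Over all genes, the calls for the difference went from 177 to 328 with the block within genotype, 78 without the filter, 98 without the trend, 46 at a fold threshold of 1, 377 with weights and 87 to 295 when each library was left out. The calls with CpG went from 313 to 187, 74 and 485 without the filter, at that threshold and with weights, to 680 with no fold threshold, and to 187 without replicate 1 of Tlr9het with CpG. At a fold threshold of 1 the responses gave 4060, 3768 and 2582 calls, from 6650, 6388 and 5135. The 2 resting calls became 0 without the filter or in a fit of the 2 groups, and 4 without replicate 2 or 3 of unstimulated Tlr997.

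Only differences near 0 turned sign. With array quality weights these were the resting differences of Fosl2 (-0.036), Jund (0.060) and Atf3 (0.13), and Fosl2 with CpG (0.022) and in the difference of responses (0.058). Leaving out each library gave resting ranges of -0.027 to 0.36 for Jun, -0.057 to 0.21 for Junb, -0.055 to 0.13 for Fosl1, -0.030 to 0.14 for Fosl2, -0.24 to 0.15 for Jund and -0.35 to 0.17 for Atf3. With CpG the ranges were -0.057 to 0.18 for Fos, -0.083 to 0.053 for Fosl2 and -0.24 to 0.076 for Atf3. In the difference of responses they were -0.28 to 0.24 for Atf3 and -0.16 to 0.017 for Fosl2, and in the CL097 response -0.30 to 0.15 for Fosl2. The cause of these changes was not tested. With 3 libraries per group and no counts, differences near 0.5 on the log2 scale lie at the limit of what these data resolve.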
